A study of Mus musculus with 153 samples.

Results

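RNA bound to tagged ribosomes of parvalbumin neurons was compared with total RNA of the same tissue, the dorsal hippocampus of mice left in their home cage. The members were the 19 home cage columns of the Pvalb count tables, out of 151 count columns in the series. Translating ribosome affinity purification (TRAP) gave 10 of them, 4 in the set named 15 min and 6 in the set named 60 min. Total lysate gave the other 9, 3 in the 15 min set and 6 in the 60 min set. All mice of these groups had the genotype Pvalb.Cre/TRAPfl, in which Cre under control of the Pvalb gene switches on the TRAP allele in the cells that express it and leaves it on afterwards. The home cage mice were the controls of a study in which other mice saw a new context with or without a shock, so the time names a set and not an exposure here. The sources used here give neither age nor sex. The comparison mice came from the same study and tissue, also from the home cage, with the genotypes Camk2a.Cre/TRAPfl (7 TRAP and 7 lysate libraries) and Sst.Cre/TRAPfl (9 and 9).

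Parvalbumin interneurons are fast-spiking GABA cells, mostly basket and axo-axonic cells, that contact the soma and the axon initial segment of pyramidal neurons. They fire brief spikes at high rates with the help of Kv3 potassium channels, release GABA with tight timing, and buffer calcium with parvalbumin. Their spiking is costly in energy, and they are known for a high density of mitochondria. In a TRAP library RNA is kept if it sits on a tagged ribosome, while the lysate holds RNA of all cells of the tissue, so a ratio of the 2 carries both the cell source and the ribosome load of a transcript.

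The 4 genes that mark these cells are Pvalb, which encodes the calcium buffer parvalbumin, Gad1, which encodes the GABA-synthesizing enzyme GAD67, Syt2, the fast calcium sensor of release at their terminals, and Kcnc1, which encodes the Kv3.1 channel. The RefSeq promoters nearest to their annotated starts are shown because the report returns to these 4 genes in every comparison. Each runs from 250 bases before to 50 bases after a start site in GRCm38.p6, 5′ to 3′ on the gene's strand. Capitals mark matches on either strand to any of 4 motifs, and no marked matches overlap. The TATA box was searched as TATAAA. The GC box was searched as GGGCGG. A half-site of oestrogen-related receptors was searched as AAGGTCA. The core of homeodomain sites was searched as TAATTA. In the GENCODE annotation of GRCm38 the genes span chromosome 15, 78191114 to 78206400 (minus strand, Pvalb), chromosome 2, 70553072 to 70602014 (plus strand, Gad1), chromosome 1, 134646677 to 134762593 (plus strand, Syt2) and chromosome 7, 46396497 to 46438704 (plus strand, Kcnc1). The windows lie at chr15:78206351-78206650 (minus strand, Pvalb), chr2:70561879-70562178 (plus, Gad1), chr1:134646362-134646661 (plus, Syt2) and chr7:46396218-46396517 (plus, Kcnc1). The start site of the Gad1 window is 9057 bases from the start of the annotated gene, that of the Syt2 window 65, of the Kcnc1 window 29 and of the Pvalb window 0.
Pvalb: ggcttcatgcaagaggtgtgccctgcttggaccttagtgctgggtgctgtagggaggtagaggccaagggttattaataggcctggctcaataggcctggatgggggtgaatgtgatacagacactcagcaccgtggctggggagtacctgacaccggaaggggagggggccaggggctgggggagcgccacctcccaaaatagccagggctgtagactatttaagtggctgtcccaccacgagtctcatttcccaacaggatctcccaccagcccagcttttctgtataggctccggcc
Gad1: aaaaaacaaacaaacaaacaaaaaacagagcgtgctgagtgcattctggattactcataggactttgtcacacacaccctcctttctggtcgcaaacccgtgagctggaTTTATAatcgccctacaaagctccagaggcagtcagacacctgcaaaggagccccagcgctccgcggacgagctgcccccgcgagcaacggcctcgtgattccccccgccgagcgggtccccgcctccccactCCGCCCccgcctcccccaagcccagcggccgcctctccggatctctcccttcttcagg
Syt2: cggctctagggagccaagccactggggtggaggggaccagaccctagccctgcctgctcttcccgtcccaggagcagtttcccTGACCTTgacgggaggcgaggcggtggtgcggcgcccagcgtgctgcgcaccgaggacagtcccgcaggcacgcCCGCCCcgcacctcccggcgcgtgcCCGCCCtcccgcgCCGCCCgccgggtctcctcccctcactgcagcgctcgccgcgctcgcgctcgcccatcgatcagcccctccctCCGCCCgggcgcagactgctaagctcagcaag
Kcnc1: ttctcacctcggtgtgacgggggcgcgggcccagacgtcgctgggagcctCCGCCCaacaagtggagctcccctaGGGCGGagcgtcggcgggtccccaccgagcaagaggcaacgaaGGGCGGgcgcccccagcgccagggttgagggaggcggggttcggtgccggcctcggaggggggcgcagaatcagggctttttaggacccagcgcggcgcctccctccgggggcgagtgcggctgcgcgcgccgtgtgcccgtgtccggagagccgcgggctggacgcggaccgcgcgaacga
The Pvalb window held none of the 4 motifs. The Gad1 window held the TATA box once, with its first base 141 bases before the start site, and the GC box once. The Syt2 window held the GC box 4 times and the receptor half-site once, and the Kcnc1 window held the GC box 3 times. Of 32851 RefSeq promoters of the same length, 35.7% held the GC box, 13.6% the TATA box, 5.29% the homeodomain core and 4.72% the receptor half-site. These are matches of letters and say nothing about binding.

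Depth was high in both fractions. The 10 TRAP libraries held 76424003 to 204139576 counted reads (median 108895612) and the 9 lysates 36843030 to 157064431 (median 76809667), so counting error was small for the genes named here and the spread between libraries set the precision. The first principal component held 28.4% of the variance and separated TRAP from lysate. No pair of replicates agreed within counting noise. Of the columns, 3 could be tied to a group but not to 1 sample, among them 2 TRAP columns of the 60 min set that carry the same name. Levels below are CPM (counts per 1000000 counts of the library) as lowest, median and highest over the 10 TRAP libraries and then over the 9 lysates. Fold changes are log2 TRAP over lysate from edgeR's quasi-likelihood test with TMM scaling and the set as a covariate, given with their standard error, and p-values are Benjamini-Hochberg adjusted over the 17014 genes tested. The design text calls the replicates biological, and the p-values measure the spread between these libraries.

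Ribosome-bound RNA of Pvalb cells differed from the lysate over much of the transcriptome. At an adjusted p under 0.05, 4310 genes (25.3% of those tested) were higher in TRAP and 4472 (26.3%) lower. Tested against a change of 2-fold, 1013 genes (5.95%) were higher and 1084 (6.37%) lower. In 1224 genes (7.19%) every TRAP library lay above every lysate within both sets, and in 2799 (16.5%) every TRAP library lay below. Unlike the calls, these counts of separated libraries used CPM, which are scaled to library totals without TMM factors. The split into higher and lower rests on the scaling. With library totals in place of TMM factors, 2919 genes were higher and 6236 lower, 592 and 1887 of them beyond 2-fold, and the median of all genes moved by -0.31 on the log2 scale, to -0.42 against -0.11. Counts of gene lists below are read against these values.

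All 4 markers were higher in TRAP, with no overlap between the fractions in either set. Pvalb had 581, 754 and 903 CPM in TRAP (lowest, median and highest) and 13.5, 18.5 and 22.9 CPM in lysates, a log2 fold change of 5.69 ± 0.14 (adjusted p = 1.74e-18), the highest among the genes ranked below. Gad1 had 2268, 2890 and 3866 CPM in TRAP and 322, 357 and 469 CPM in lysates, and its log2 fold change was 3.34 ± 0.11. Syt2 was a low transcript in both fractions, with 11.4, 24.4 and 33.3 CPM in TRAP and 2.02, 3.40 and 5.51 CPM in lysates, and a log2 fold change of 3.04 ± 0.22. Kcnc1 had 160.3, 186 and 238 CPM in TRAP and 38.8, 50.5 and 53.9 CPM in lysates, with a log2 fold change of 2.33 ± 0.10 (adjusted p = 5.79e-14). The lowest TRAP library exceeded the highest lysate for each of the 4 genes.

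**Figure D1:**
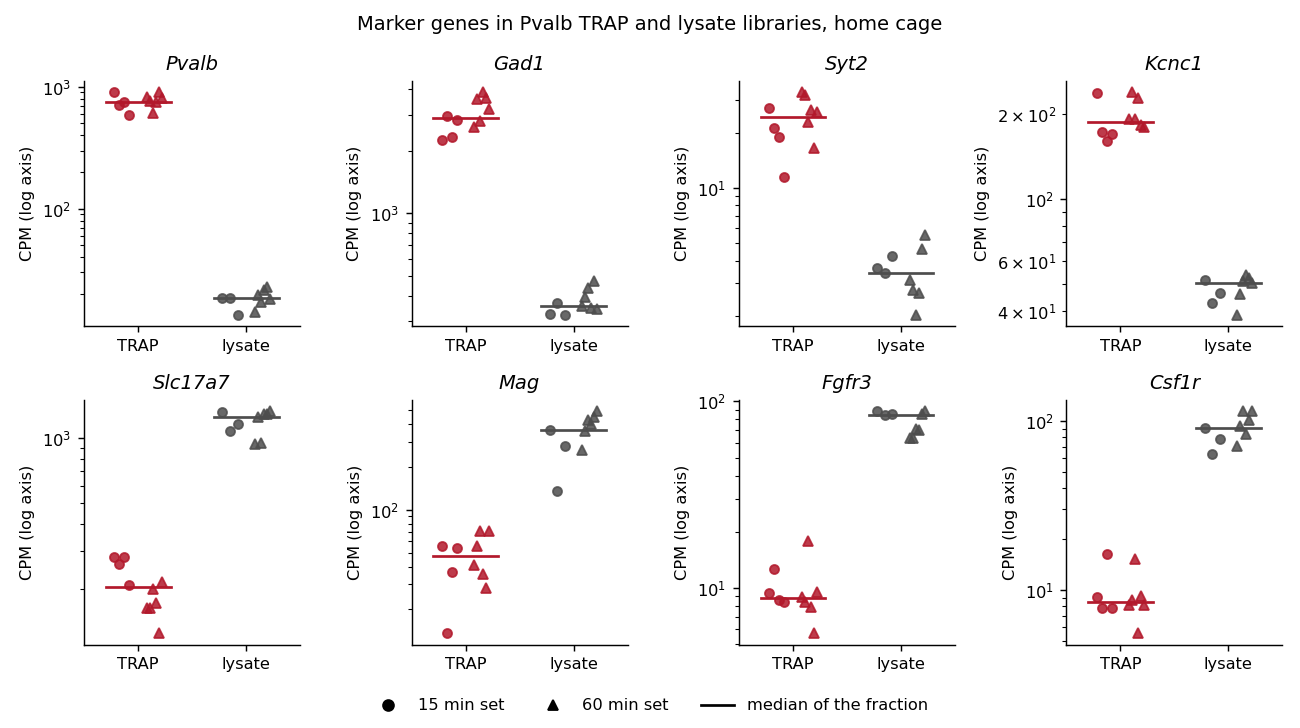
CPM (log axis) of 8 marker genes in each library, TRAP on the left and lysate on the right of each panel, circles for the 15 min set, triangles for the 60 min set and a line at the median of the fraction. Pvalb, Gad1, Syt2 and Kcnc1 lie higher in every TRAP library than in any lysate, while Slc17a7 (pyramidal neurons), Mag (oligodendrocytes), Fgfr3 (astrocytes) and Csf1r (microglia) lie lower.

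After Pvalb, the genes with the highest enrichment among 685 that were over 2-fold higher, did not overlap in either set and reached 20 CPM were a mixed group. Akr1c18, which encodes a hydroxysteroid dehydrogenase that inactivates progesterone, had 42.3, 287 and 378 CPM in TRAP and 4.54, 7.93 and 10.6 CPM in lysates (log2 fold change 5.17 ± 0.34). Tac1, the precursor of substance P, had 245, 379 and 634 CPM in TRAP and 11.7, 15.8 and 33.4 CPM in lysates (4.82 ± 0.23). Neither overlapped between the fractions, though Akr1c18 varied widely among the TRAP libraries. Pthlh, which encodes a hormone related to parathyroid hormone, had 28.1, 69.4 and 129 CPM in TRAP and 2.41, 4.37 and 5.86 CPM in lysates (4.51 ± 0.29). Cox6a2, the muscle-type subunit of cytochrome c oxidase, had 76.3, 118 and 197 CPM in TRAP and 5.77, 9.10 and 13.7 CPM in lysates (4.13 ± 0.20). Tcap, a gene best known from the muscle sarcomere, had 11, 30.0 and 63.1 CPM in TRAP and 0.286, 1.02 and 4.33 CPM in lysates (4.69 ± 0.38). Cox6a2 and Tcap, both known mainly from muscle, had no TRAP library within the range of the lysates.

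The others of the leading group had roles in membrane and inhibitory signalling or in chromatin. Ank1, an ankyrin that ties membrane proteins to the spectrin skeleton, had 53.7, 84.8 and 123 CPM in TRAP and 4.21, 5.88 and 8.22 CPM in lysates (4.22 ± 0.19). Slc32a1, the vesicular GABA transporter, had 62.5, 88.4 and 153 CPM in TRAP and 3.43, 7.87 and 11.3 CPM in lysates (4.10 ± 0.21). Gjd2, which encodes connexin 36, the gap junction protein that couples interneurons electrically, had 36.7, 43.5 and 65.8 CPM in TRAP and 1.97, 3.50 and 4.65 CPM in lysates (4.09 ± 0.16). In none of these did the fractions overlap, which within each set was a condition for entering this ranking. Vwc2, a secreted protein that acts on BMP signalling, had 25.2, 42.5 and 66.2 CPM in TRAP and 2.02, 2.85 and 5.05 CPM in lysates (4.09 ± 0.23). Bahcc1 had 97.9, 124 and 201 CPM in TRAP and 2.89, 5.25 and 7.11 CPM in lysates (5.06 ± 0.19), and Tnrc18 191, 246 and 382 CPM in TRAP and 8.78, 15.5 and 19.1 CPM in lysates (4.38 ± 0.15). Both genes encode proteins with a BAH domain, found in chromatin proteins.

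Among the 12 genes with the strongest depletion, several belong to microglia, the immune cells of the brain. Tmem119, a defining microglial membrane protein, had 1.87, 3.99 and 7.84 CPM in TRAP and 41.0, 56.0 and 67.4 CPM in lysates (log2 fold change -3.35 ± 0.23). Csf1r, the receptor microglia need to survive, had 5.52, 8.41 and 16.2 CPM in TRAP and 63.6, 90.5 and 115 CPM in lysates (-2.92 ± 0.18). Selplg (-2.98 ± 0.26), Laptm5 (-2.85 ± 0.19) and Unc93b1 (-3.29 ± 0.20), all expressed in immune cells, were lower as well. A further group belongs to excitatory neurons and their synapses. Nptxr, a receptor that binds neuronal pentraxins at excitatory synapses, was the lowest of the 12, with 0.673, 2.04 and 6.62 CPM in TRAP and 22.7, 31.0 and 53.0 CPM in lysates (-3.78 ± 0.25). Icam5 (telencephalin), an adhesion protein of pyramidal dendrites, had 16.5, 30.8 and 50.4 CPM in TRAP and 226, 277 and 358 CPM in lysates (-2.95 ± 0.13). Pcdhgc5, a clustered protocadherin that shares exons with other genes of its cluster and is uncertain for that reason, had 1.84, 2.89 and 4.78 CPM in TRAP and 30.9, 42.3 and 49.2 CPM in lysates (-3.49 ± 0.18). Cabp7 (-2.86 ± 0.22), Plk5 (-3.00 ± 0.31), Olfml2b (-2.92 ± 0.34) and Sh3bp4 (-3.05 ± 0.33) completed the 12.

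Markers of other cells were still read in the TRAP libraries, at lower levels. Of 13 microglial markers all 13 were lower (median log2 fold change -1.99), of 12 oligodendrocyte markers 11 (-1.61), of 19 pyramidal and granule cell markers 16 (-1.46), of 13 astrocyte markers 11 (-1.16) and of 6 markers of oligodendrocyte precursors 4 (-1.07), beside -0.11 for all genes. Summed over each list, microglial markers gave 159 to 205 CPM in TRAP and 674 to 966 CPM in lysates, pyramidal markers 1685 to 2906 CPM in TRAP and 6747 to 10842 CPM in lysates, and astrocyte markers 2294 to 3239 CPM in TRAP and 5537 to 6884 CPM in lysates. Oligodendrocyte markers summed to 1069 to 4057 CPM in TRAP and 4459 to 13452 CPM in lysates. No list had a marker at 0 in every TRAP library, and the part of RNA from other cells in the results was not tested. In such bulk samples the cell source and the ribosome load of a transcript cannot be told apart.

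Slc17a7, the vesicular glutamate transporter of pyramidal cells, had 125, 205 and 282 CPM in TRAP and 933, 1248 and 1333 CPM in lysates, a log2 fold change of -2.25 ± 0.12. Fgfr3, an astrocyte receptor, had 5.71, 8.81 and 17.9 CPM in TRAP and 63.5, 84.3 and 89.2 CPM in lysates (-2.70 ± 0.16), and Mag, a myelin protein, 13.6, 47.7 and 71.1 CPM in TRAP and 136, 362 and 494 CPM in lysates (-2.58 ± 0.24). Mbp, the myelin basic protein, was less depleted and overlapped between the fractions of the 15 min set, with 459, 1438 and 2444 CPM in TRAP and 1913, 4564 and 6180 CPM in lysates (-1.29 ± 0.26). The 1 pyramidal or granule marker that rose was Dsp, a desmosome protein used to mark dentate granule cells, with 9.36, 51.3 and 154 CPM in TRAP and 6.44, 21 and 30.6 CPM in lysates (1.87 ± 0.42). Its TRAP and lysate libraries overlapped.

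Not every non-neuronal list was lower. Of 11 endothelial markers 2 rose and none fell (median 0.12), and their summed level was 248 to 414 CPM in TRAP and 248 to 396 CPM in lysates. With library totals as the scaling, 2 rose and 3 fell (median -0.19). Ly6c1, an endothelial surface protein, had 36.5, 74.2 and 155 CPM in TRAP and 29.3, 39.7 and 47.4 CPM in lysates (1.45 ± 0.16). Acta2, the smooth muscle actin of mural cells, had 12.6, 21.7 and 34.6 CPM in TRAP and 4.29, 9.17 and 15.5 CPM in lysates (1.62 ± 0.23), while 2 of the 7 mural markers fell (4 with library totals as the scaling). The median of the mural markers was -0.41, beside -0.11 for all genes. Among 10 choroid plexus and ependymal markers 3 rose and none passed the test downwards. The other 7 were not called, and the median of the list was -0.95. Tmem212, a gene of ciliated ependymal cells, had 48.8, 73.8 and 106 CPM in TRAP and 3.21, 15.4 and 26.1 CPM in lysates (2.95 ± 0.26), and Ccdc153, another cilia gene, 27.9, 44.2 and 72.5 CPM in TRAP and 3.68, 9.23 and 19.6 CPM in lysates (2.54 ± 0.24). Ttr, which encodes transthyretin of the choroid plexus, spanned 4.03 to 4923 CPM in TRAP and 27.9 to 17465 CPM in lysates and did not pass the test (log2 fold change -1.48 ± 1.18, adjusted p = 0.318). The 2 ependymal genes were higher in every TRAP library than in any lysate, while Ttr varied strongly within both fractions.

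**Figure D2:**
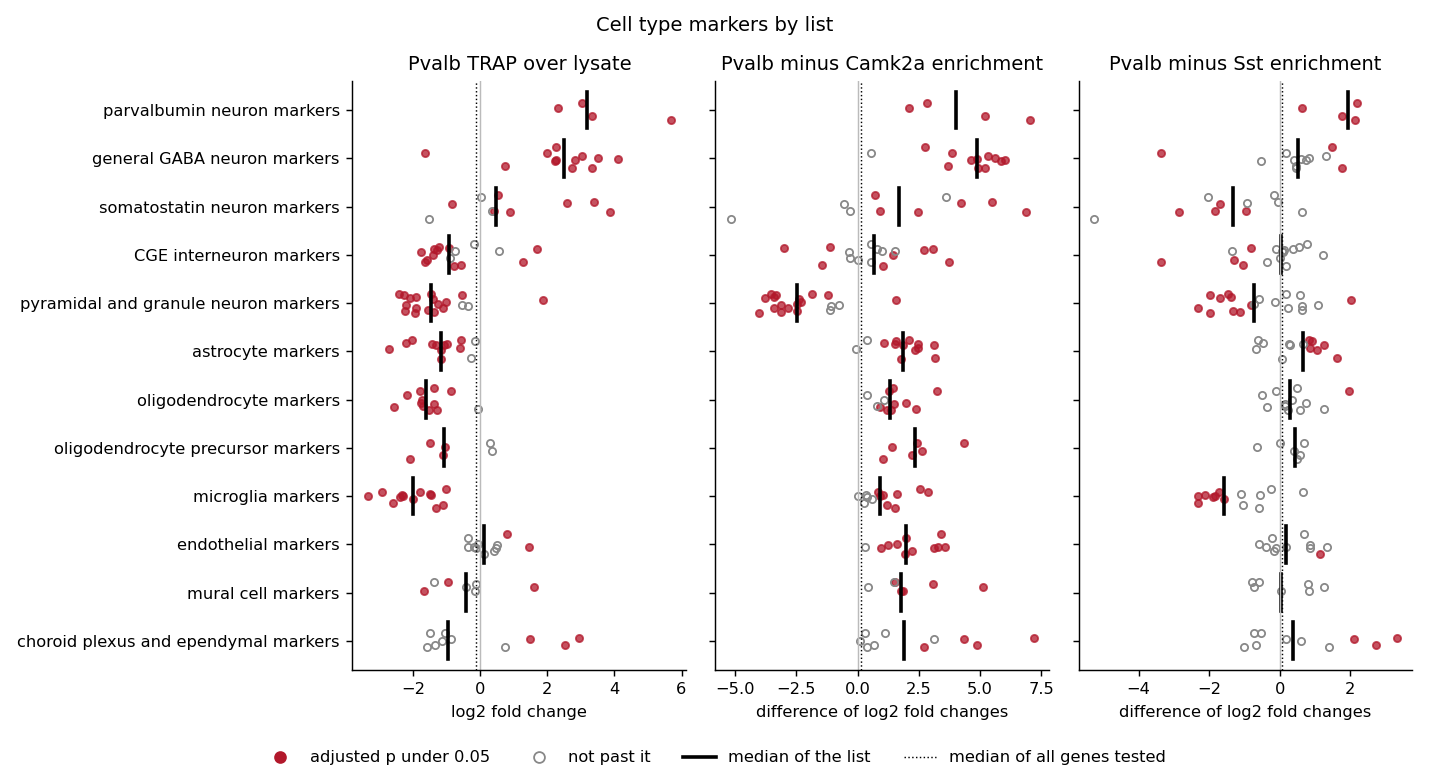
Each point is 1 marker gene of the list named on the left, at its log2 fold change of TRAP over lysate in the Pvalb line (left panel) or at the difference between the Pvalb line's log2 fold change and that of the Camk2a line (middle) or the Sst line (right). Filled points passed an adjusted p of 0.05, thick bars are list medians and the dotted line is the median of all genes tested. In the left panel GABA neuron markers lie at a median of 2.51 and microglial markers at -1.99.

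General markers of GABA neurons were nearly all higher. Of 12, 11 were higher (median 2.51) and Npas1, a transcription factor of other interneuron classes, was lower (-1.64 ± 0.24). Gad2, the GAD65 enzyme, had 371, 592 and 808 CPM in TRAP and 100.1, 152 and 212 CPM in lysates (2.28 ± 0.14). Of 16 markers of interneurons from the caudal ganglionic eminence, 10 fell and 2 rose (median -0.91). Vip, the peptide of disinhibitory interneurons, had 4.08, 6.06 and 24.2 CPM in TRAP and 14.1, 24.2 and 54.4 CPM in lysates (-1.41 ± 0.26), and Cck, the peptide of a separate class of basket cells, 114, 176 and 297 CPM in TRAP and 335, 428 and 517 CPM in lysates (-0.93 ± 0.12). Crh (1.71 ± 0.27) and Sncg (1.29 ± 0.24) were the 2 that rose. Cck and Vip lay lower in every TRAP library than in any lysate of the same set.

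Of 10 somatostatin neuron markers 6 were higher and 1 lower (median 0.47), and 7 and none with offsets for GC content and length (median 0.89). Crhbp, which binds and inactivates corticotropin-releasing hormone, had 476, 663 and 815 CPM in TRAP and 45.4, 56.5 and 71.5 CPM in lysates (3.87 ± 0.13). Cort, the somatostatin-like peptide cortistatin, had 75.6, 133 and 444 CPM in TRAP and 14.5, 18.7 and 31.2 CPM in lysates (3.40 ± 0.31). Sst itself was read in both fractions, with 183, 325 and 1019 CPM in TRAP and 212, 301 and 341 CPM in lysates (0.88 ± 0.22), and its libraries overlapped. Npy, the peptide neuropeptide Y, varied widely, with 196, 998 and 1813 CPM in TRAP and 115, 204 and 303 CPM in lysates (2.59 ± 0.34). Per length, Npy was the gene of rank 7 in TRAP libraries, at 5660 TPM (transcripts per 1000000, corrected for length) and of rank 80 in lysates, at 1246 TPM.

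Of 24 transcription factors of interneuron development and identity, 15 were higher and 4 lower (median 1.59). Lhx6, the factor that marks interneurons of the medial ganglionic eminence, had 112, 135 and 155 CPM in TRAP and 19, 22.0 and 34.7 CPM in lysates (2.84 ± 0.11). Its lowest TRAP library lay above its highest lysate. Satb1 (2.66 ± 0.14), Sox6 (2.37 ± 0.13) and Mef2c (2.60 ± 0.16), factors that act in the maturation of this lineage, rose with it. Esrrg, the oestrogen-related receptor gamma, which drives mitochondrial genes, had 60.8, 125 and 159.6 CPM in TRAP and 5.72, 15.6 and 26.7 CPM in lysates (3.22 ± 0.28). Prox1, a factor of granule cells and of interneurons from the caudal eminence, fell (-1.22 ± 0.24), like Npas1.

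Genes tied to fast spiking were mostly higher. Of 20 such genes, which were picked with earlier results known, 16 were higher and 1 lower (median 2.35). Kcnc2, which encodes Kv3.2 and forms channels with Kv3.1, had 645, 959 and 1334 CPM in TRAP and 58.6, 85.4 and 157 CPM in lysates (3.70 ± 0.19). Kcns3, a silent subunit that modifies other Kv channels, had 56.1, 97.8 and 142 CPM in TRAP and 10.4, 15.0 and 17.2 CPM in lysates (3.02 ± 0.16). Both stood clear of the lysates in each set. Ppargc1a, the coactivator PGC-1α that raises mitochondrial gene expression, had 112, 142 and 169.9 CPM in TRAP and 26.3, 31.4 and 52.4 CPM in lysates (2.40 ± 0.14). Btbd11 (3.25 ± 0.19) and Osbpl3 (2.34 ± 0.16) also rose. Slc9a2, a sodium-proton exchanger, fell (-1.31 ± 0.35) at 1.62 CPM in TRAP and 5.92 CPM in lysates (medians). Acan, the aggrecan core protein of perineuronal nets, was low in both fractions and did not pass the test, with 1.76, 2.90 and 6.18 CPM in TRAP and 0.449, 3.83 and 5.59 CPM in lysates (0.22 ± 0.36, adjusted p = 0.642).

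Of 41 voltage-gated potassium channel subunits and partners, 14 rose and 16 fell (median -0.09). Those that rose included genes of the Kv3 and the axonal Kv1 families. Kcna1 (Kv1.1) had 439.8, 648 and 749 CPM in TRAP and 174, 206 and 248 CPM in lysates (1.86 ± 0.10), and Kcna2 (Kv1.2) 475, 528 and 678 CPM in TRAP and 122, 145 and 179 CPM in lysates (2.19 ± 0.10). Kcnc4 (Kv3.4) fell, with 4.01, 7.52 and 18.7 CPM in TRAP and 26.0, 34.2 and 54.2 CPM in lysates (-1.89 ± 0.21). Kcng4 (2.66 ± 0.20) and Kcnip1 (2.68 ± 0.14), a silent subunit and a partner of Kv4 channels, rose. Kcnh3 (-2.51 ± 0.17) and Kcnip3 (-2.30 ± 0.16) fell. Outside the Kv family, of 23 genes of calcium-activated, inward rectifier and 2-pore potassium channels 8 rose and 7 fell (median -0.20). The highest of them was Kcnmb2, a beta subunit of the BK channel (3.46 ± 0.19). It had 27.7, 38.2 and 48.3 CPM in TRAP and 2.33, 4.41 and 6.98 CPM in lysates. The lowest log2 fold change of that list was -4.37. Of 11 genes of the sodium-potassium ATPase and chloride transport 2 rose and 7 fell (median -0.97).

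Of 13 sodium channel genes and partners 8 rose and 2 fell (median 0.69), against 7 and 4 with library totals as the scaling (median 0.39). Scn1a, the Nav1.1 channel whose loss in interneurons causes seizures, had 206, 248 and 351 CPM in TRAP and 30.5, 51.5 and 85.3 CPM in lysates (2.55 ± 0.16). Scn8a, the Nav1.6 channel of the axon initial segment, had 346, 383 and 484 CPM in TRAP and 184, 209 and 269 CPM in lysates (1.19 ± 0.09). Fgf12, a cytosolic partner that tunes their inactivation, rose (2.81 ± 0.16), and Scn3b, a beta subunit, fell (-0.99 ± 0.14). Of 21 calcium and HCN channel genes 4 rose and 10 fell (median -0.31), but with offsets for GC content and length 9 rose and 10 fell (median 0.26), so the lean of this list depended on that correction. Cacna2d2, an auxiliary calcium channel subunit, rose (2.28 ± 0.23), while Cacnb1 (-1.91 ± 0.13) and the T-type channel gene Cacna1h (-1.98 ± 0.20) fell.

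Of 46 genes of synaptic vesicle release 18 rose and 12 fell (median 0.17), and with library totals as the scaling 13 rose and 18 fell (median -0.14). In some families 1 member rose and its relative fell. Cplx1, the complexin of fast terminals, had 1306, 1616 and 2035 CPM in TRAP and 462, 553 and 668 CPM in lysates (1.91 ± 0.10), whereas Cplx2 had 156, 268 and 339 CPM in TRAP and 447, 576 and 608 CPM in lysates (-0.76 ± 0.12). Vamp1, a vesicle SNARE, had 379, 570.0 and 703 CPM in TRAP and 77.0, 93.3 and 110.5 CPM in lysates (2.88 ± 0.11). Rab3b, a vesicle GTPase, had 645, 806 and 1073 CPM in TRAP and 71.8, 97.8 and 144 CPM in lysates (3.22 ± 0.15). The plasma membrane SNARE gene Stx1a fell, with 8.78, 18.2 and 39.1 CPM in TRAP and 78.5, 108 and 156 CPM in lysates (-2.19 ± 0.18). Syt5, a synaptotagmin of dense-core vesicles, fell (-1.69 ± 0.12).

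Ratios per length within a library set these pairs on 1 scale, and the TPM ratio of Cplx1 to Cplx2 was 14.8 in TRAP and 2.16 in lysates (medians). For Kcnc2 to Kcnd2, a Kv4 channel gene, it was 7.30 in TRAP and 0.563 in lysates, and these medians lay on opposite sides of 1. The ratio of Vamp1 to Vamp2 was 0.118 in TRAP and 0.0227 in lysates, and that of Syt2 to Syt1 0.0165 in TRAP and 0.00351 in lysates. Both shifted towards the first gene, but Vamp2 and Syt1 remained the more abundant ones in the TRAP libraries. The ratio of Pvalb to Calb1, the calbindin gene, was 17 in TRAP and 0.283 in lysates. Other pairs shifted away from the first gene, with overlapping ranges. The ratio of Grin2d to Grin2b was 0.408 in TRAP and 0.559 in lysates, and that of Kcnab3 to Kcnab1 0.263 in TRAP and 0.332 in lysates (medians).

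**Figure D3:**
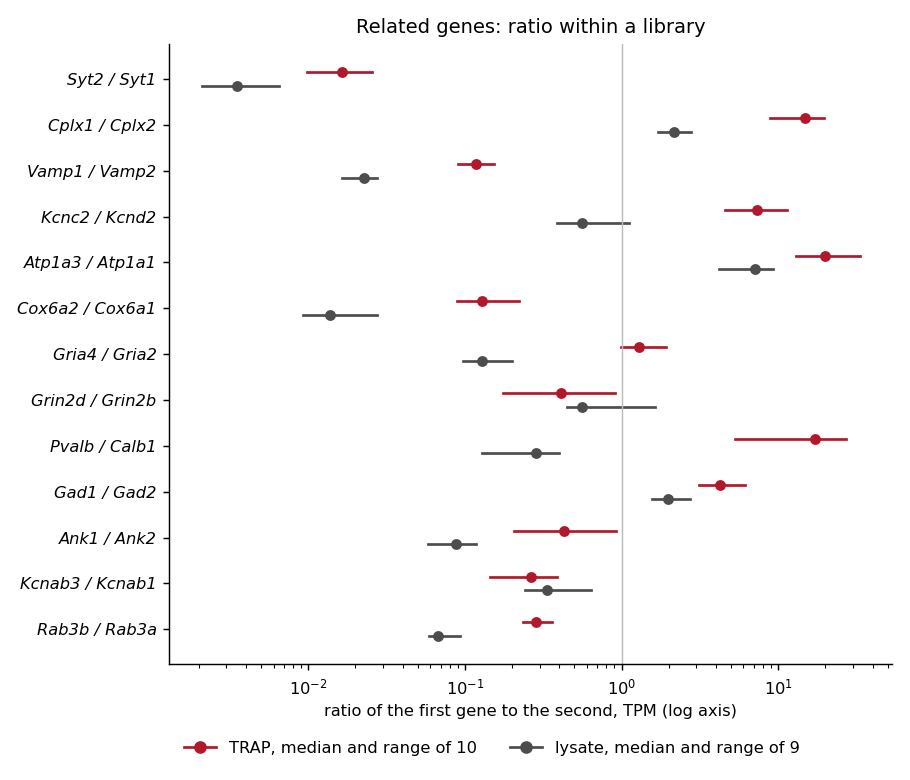
TPM ratio of the first gene to the second within a library (log axis), as median and full range over 10 TRAP libraries (upper line of each pair, red) and 9 lysates (lower line, grey). The ratio Cplx1 to Cplx2 had a median of 14.8 in TRAP and 2.16 in lysates, and Gria4 to Gria2 1.29 in TRAP and 0.128 in lysates, with no overlap of the ranges in either pair.

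Genes that handle GABA were mostly higher. Of 14 for its synthesis, transport and breakdown 10 rose and 2 fell (median 1.05). Slc38a1, which takes up glutamine for transmitter synthesis, had 281, 337 and 518 CPM in TRAP and 84.5, 88.0 and 118 CPM in lysates (2.26 ± 0.12). The breakdown enzymes Aldh5a1 (2.09 ± 0.12) and Abat (1.34 ± 0.09) rose. The 2 that fell, Slc6a11 (-1.90 ± 0.16) and Slc6a13 (-2.88 ± 0.53), encode GABA transporters of glia and of the brain's coverings. Among 14 GABA-A receptor subunits 6 rose and 3 fell (median 0.04), and with library totals as the scaling 6 rose and 5 fell (median -0.24). Gabrb2, which encodes a beta subunit, had 592, 944 and 1305 CPM in TRAP and 153, 261 and 343 CPM in lysates (2.20 ± 0.17). Gabra5, which encodes an extrasynaptic subunit of pyramidal cells, fell, with 63.9, 84.9 and 103 CPM in TRAP and 275, 305 and 391 CPM in lysates (-1.59 ± 0.09).

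Of 20 AMPA receptor genes and auxiliary subunits 5 rose and 8 fell (median -0.24), and with offsets for GC content and length 6 rose and 6 fell (median 0.17), but 4 and 11 with library totals as the scaling (median -0.55). Gria4, the subunit that gives fast currents in interneurons, had 122, 162 and 224 CPM in TRAP and 24.2, 29.8 and 59.4 CPM in lysates (2.68 ± 0.18). Gria2, whose protein makes the receptor impermeable to calcium, had 242, 331 and 381 CPM in TRAP and 468, 644 and 729 CPM in lysates (-0.59 ± 0.10), and the TPM ratio of Gria4 to Gria2 was 1.29 in TRAP and 0.128 in lysates. The auxiliary subunit Cnih2 fell (-1.50 ± 0.13), as did the pentraxin Nptx1 (-1.70 ± 0.14), whose receptor Nptxr led the lower genes. Of 7 NMDA receptor subunits none rose and 3 fell (median -0.72, and -0.05 with those offsets), among them Grin1 (-0.72 ± 0.12), the subunit shared by all these receptors, which did not pass the test with them (-0.05). Of 28 scaffold genes of excitatory synapses 15 fell and 5 rose (median -0.35), and with offsets for GC content and length 11 fell and 8 rose (median -0.05). Dlg4, the scaffold PSD-95, fell (-1.01 ± 0.14), while Kalrn, an exchange factor for Rac, rose, with 349.9, 759 and 1540 CPM in TRAP and 76.5, 91.0 and 114 CPM in lysates (3.31 ± 0.19).

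Of 20 genes of neurofilaments, the axon initial segment and the node 14 rose and 2 fell (median 0.78). Nefh, the heavy neurofilament, had 120.3, 194 and 266 CPM in TRAP and 36.0, 42.7 and 57.3 CPM in lysates (2.36 ± 0.13), and Nefm, the medium one, 235, 378 and 514 CPM in TRAP and 79.0, 91.2 and 109.7 CPM in lysates (2.32 ± 0.13). Ank3, the ankyrin that organizes the initial segment, rose with a wide spread, 62.5, 145 and 379 CPM in TRAP and 41.6, 49.6 and 57.5 CPM in lysates (2.02 ± 0.24), while Sptbn4, the spectrin bound to it, fell (-1.06 ± 0.20). Of 16 perineuronal net and matrix genes 5 rose and 4 fell (median 0.19, or -0.12 with library totals as the scaling). Hapln1, a link protein of the net, had 39.2, 69.3 and 113 CPM in TRAP and 19.8, 24.3 and 31.2 CPM in lysates (1.85 ± 0.18), and Adamts15, a protease that cuts its proteoglycans, rose (3.11 ± 0.20). Bcan (-2.02 ± 0.14) and Tnr (-1.45 ± 0.31), which glia also make, fell.

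Of 27 peptides, growth factors and receptors 11 rose and 9 fell (median 0.23), and with library totals as the scaling 9 rose and 10 fell (median -0.08). With offsets for GC content and length 10 rose and 8 fell (median -0.17). Fgf9 had 106, 137 and 153 CPM in TRAP and 22.3, 28.1 and 36.0 CPM in lysates (2.55 ± 0.11). Erbb4, the neuregulin receptor that shapes the excitatory inputs of these cells, had 4.97, 21.5 and 30.3 CPM in TRAP and 1.35, 2.45 and 4.74 CPM in lysates (3.04 ± 0.33). Cckbr, the cholecystokinin receptor by which CCK excites parvalbumin cells, rose (2.08 ± 0.17), and Bdnf, made by excitatory neurons, fell (-1.30 ± 0.16). Of 24 receptors for monoamines, acetylcholine and cannabinoids 6 rose and 7 fell (median -0.27), against 5 and 9 with library totals (median -0.58). Chrm1, the muscarinic M1 receptor of pyramidal cells, fell, with 52.3, 66.7 and 86.9 CPM in TRAP and 235, 321 and 374 CPM in lysates (-1.86 ± 0.11), while Chrm2, the M2 receptor of interneuron terminals, rose at low levels (2.17 ± 0.45) with overlapping libraries. Of 30 adhesion and guidance genes 9 rose and 7 fell (median 0.27), against 9 and 10 with library totals as the scaling (median -0.03) and 11 and 8 with offsets for GC content and length (median -0.10). Among those that rose was Cntnap4, which shapes GABA release, with 69.9, 116 and 156 CPM in TRAP and 10.6, 13.0 and 22.7 CPM in lysates (3.35 ± 0.18).

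Genes of the mitochondrial respiratory chain were mostly higher. Of 76 nuclear-encoded subunits of the respiratory chain 71 rose and none fell (median 1.18), and with library totals as the scaling 61 rose and none fell. Per length, Ndufa1 reached 14690 TPM in TRAP libraries, where only Calm2 (20210 TPM) was more abundant, and 3517 TPM in lysates, where it ranked 16. In CPM, Ndufa1 had 1629, 1845 and 2574 in TRAP and 314, 438 and 686 in lysates (2.48 ± 0.13). Ndufb6, Ndufa4 and Uqcrb, all subunits of the chain, stood among the 8 most abundant TRAP transcripts at 9599, 8272 and 5539 TPM, against 2378, 2216 and 1424 TPM in lysates. Of 77 mitochondrial ribosomal proteins 58 rose and 3 fell (median 0.78), and of 24 regulators of mitochondrial energy supply 16 rose and 4 fell (median 0.65). Cox6a2 gained on its ubiquitous relative Cox6a1, with a TPM ratio of 0.129 in TRAP and 0.0137 in lysates.

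Of 21 glycolysis genes, 3 rose and 8 fell (median -0.05), and with offsets for GC content and length 7 rose and 5 fell (median 0.10), but with library totals as the scaling 3 rose and 13 fell (median -0.36). The lactate dehydrogenase genes moved apart: Ldhb, whose enzyme favours pyruvate, had 1602, 1826 and 2217 CPM in TRAP and 656, 808 and 909 CPM in lysates (1.52 ± 0.08), and Ldha had 96.4, 151 and 239.7 CPM in TRAP and 503, 537 and 637 CPM in lysates (-1.59 ± 0.12). Pfkl, the liver-type phosphofructokinase, fell (-2.01 ± 0.13). Of 85 cytosolic ribosomal protein genes 44 rose and 7 fell (median 0.38), but with library totals as the scaling 33 rose and 22 fell (median 0.07). Of 44 translation factors 20 rose and 9 fell (median 0.19), and with library totals 12 rose and 16 fell (median -0.12), so the counts of both lists depended on the scaling. Many ribosomal protein genes have near-identical pseudogenes, which makes their counts uncertain.

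Rapid activity genes, which neurons switch on within minutes of strong firing, were mostly lower in these home cage mice. Of 25, 15 fell and 5 rose (median -0.73). Arc, a plasticity gene of excitatory neurons, had 21, 46.5 and 82.4 CPM in TRAP and 126, 314 and 485 CPM in lysates (-2.32 ± 0.18). Junb (-1.80 ± 0.13) and Egr1 (-1.26 ± 0.12) fell as well. Fos had 17.4, 28.2 and 49.5 CPM in TRAP and 7.33, 18.4 and 26.4 CPM in lysates (1.11 ± 0.20), with overlap, and Dusp1, a phosphatase of MAP kinases, 67.6, 110.4 and 136 CPM in TRAP and 24.9, 40.2 and 55.4 CPM in lysates (1.74 ± 0.14). Of 14 nuclear long noncoding RNAs 4 fell and 2 rose (median -0.32). With offsets for GC content and length (median -0.61), and likewise with library totals as the scaling (median -0.63), 8 fell and 1 rose, while in the 15 min set alone 1 fell and 1 rose (median 0.07). Neat1, the RNA of nuclear paraspeckles, had 0.550, 7.0 and 11.6 CPM in TRAP and 22.2, 42.5 and 54.9 CPM in lysates (-2.38 ± 0.37). Malat1, another nuclear RNA, did not pass the test, at 1326, 2936 and 3803 CPM in TRAP and 2231, 3409 and 5876 CPM in lysates (-0.05 ± 0.17, adjusted p = 0.833), and passed it as lower with offsets for GC content and length (-0.41).

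**Figure D4:**
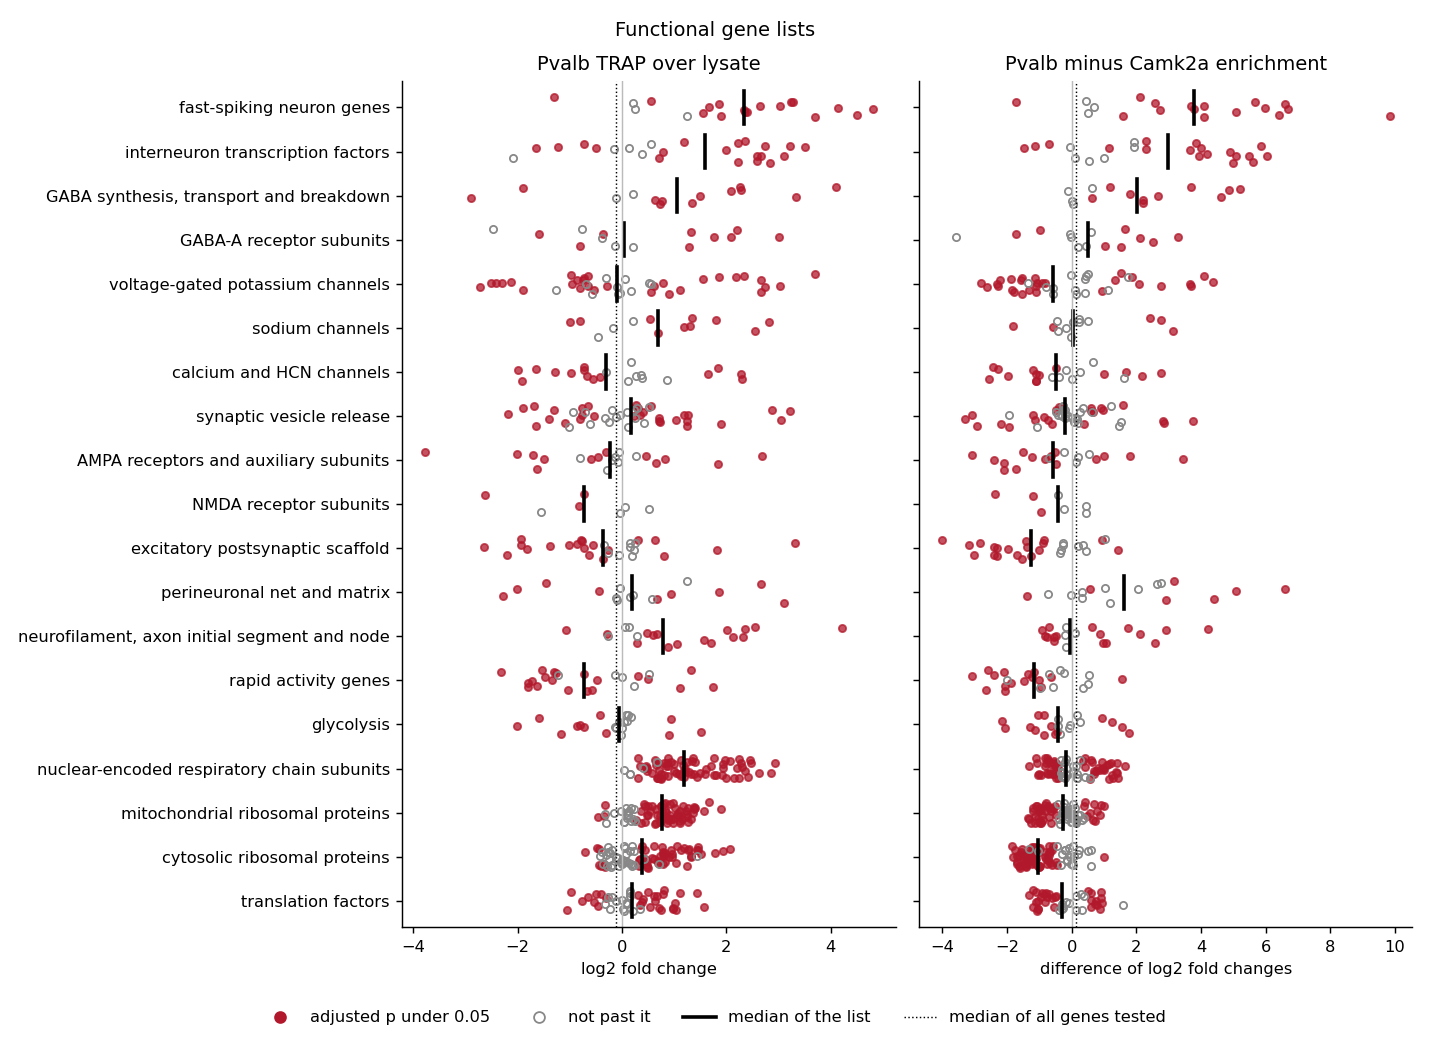
Each point is 1 gene of the list named on the left, at its log2 fold change of TRAP over lysate in the Pvalb line (left panel) or at the difference of that value from the Camk2a line's (right panel). Filled points passed an adjusted p of 0.05, thick bars are list medians and the dotted line is the median of all genes tested. Respiratory chain genes lie at a median of 1.18 on the left and -0.17 on the right.

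To see which enrichments differ from those on ribosomes of excitatory neurons, the Pvalb line's log2 fold change of TRAP over lysate was set against that of the Camk2a line, each line with its own lysates, by a contrast of group means in edgeR over 16667 genes. The difference was above 0 in 3774 genes (22.6%) and below 0 in 3847 (23.1%). The 4 markers were all higher in the Pvalb line, Pvalb by 7.03 ± 0.37, Gad1 by 5.2 ± 0.30, Syt2 by 2.83 ± 0.48 and Kcnc1 by 2.08 ± 0.18. Among the genes with the smallest p, Crhbp (6.87 ± 0.28), Mxra7 (4.98 ± 0.25) and Rcan2 (4.63 ± 0.19), a calcineurin regulator, were higher, as were Kcnip1 (3.65 ± 0.18), Nacc2 (3.23 ± 0.15) and Laptm4b (2.72 ± 0.14). Nrgn, the calmodulin buffer of pyramidal dendrites, was the first among the lower ones (-4.01 ± 0.18), followed by Ctxn1 (-2.79 ± 0.15), Nell2 (-2.78 ± 0.15), Syt5 (-3.08 ± 0.17), Slc17a7 (-3.34 ± 0.19) and Celf5 (-2.73 ± 0.16).

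Pyramidal markers were mostly lower and GABA markers mostly higher in this comparison. Of 19 pyramidal and granule markers 15 were lower in the Pvalb line and 1 higher (median -2.47), of 12 GABA markers 11 were higher (4.89), and of 20 AMPA receptor genes 11 were lower and 4 higher (-0.57). Of 76 respiratory chain subunits 26 were higher and 28 lower (median -0.17), and of the cytosolic ribosomal proteins 1 was higher and 63 lower (median -1.04 over 84 genes), beside a median shift of all genes of 0.12 to 0.14 when the scaling was changed. Glial and vascular markers were higher in the Pvalb line's ratio, with 11 of 13 astrocyte markers (median 1.86), 10 of 11 endothelial markers (1.98) and 9 of 12 oligodendrocyte markers (1.33) above 0 and none below. Scn8a did not pass the test (-0.03 ± 0.13, adjusted p = 0.905), and Scn1a was higher (3.13 ± 0.26). Gabbr1, a GABA-B receptor subunit that rose over the lysate (0.98 ± 0.08), was lower in this comparison (-0.39 ± 0.11).

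In the Sst line 2 of the 9 TRAP libraries went against their label. Replicate 2 of the 15 min set had 207.5 CPM of Sst and 1396 CPM of Pvalb, more Pvalb than any of the 19 home cage libraries of the Pvalb line, and replicate 3 of the 60 min set had 245.8 CPM of Sst and 2493 CPM of Slc17a7. Both lay below a lysate of their own line in Sst, and the other 7 had 797.6 to 3585 CPM of Sst, 73.5 to 499 CPM of Pvalb and 137 to 1355 CPM of Slc17a7. Against all 9, the Pvalb line's log2 fold change was higher in 2523 of 16886 genes (14.9%) and lower in 2467 (14.6%). Without these 2 libraries, 2234 of 16853 were higher and 2825 lower. The number of calls depended on the fit. With the replicate number as a block, which uses only numbered pairs of libraries, 124 were higher and 203 lower, and the same pairs without the block gave 617 higher and 1058 lower. With the block and without the 2 libraries 621 were higher and 1117 lower. Each value of this comparison is given first with all 9 libraries and then without the 2.

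Against the Sst line, Pvalb was higher by 2.13 ± 0.43 (2.28 ± 0.30 without the 2 libraries), Gad1 by 1.76 ± 0.34 (1.61 ± 0.28), Syt2 by 2.19 ± 0.45 (2.47 ± 0.41) and Kcnc1 by 0.64 ± 0.25 (0.69 ± 0.25), with an adjusted p for Kcnc1 of 0.0492 with all 9 libraries and 0.0383 without the 2. Sst was lower by -2.85 ± 0.53 (-3.30 ± 0.39). The smallest p among the higher genes belonged to Ttc39b (2.41 ± 0.33, then 2.49 ± 0.28), Cd24a (3.31 ± 0.49, then 3.77 ± 0.37), Abcd2 (1.68 ± 0.26, then 1.51 ± 0.26), Gab1 (1.48 ± 0.24, then 1.43 ± 0.24), Wee1 (1.83 ± 0.30, then 1.73 ± 0.28) and Pthlh (3.09 ± 0.52, then 3.27 ± 0.46). Among the lower ones they were Syt5 (-2.37 ± 0.31, then -2.62 ± 0.24), Tagln3 (-2.03 ± 0.27, then -2.25 ± 0.24), Arhgdib (-2.80 ± 0.39, then -2.98 ± 0.35), Wfs1 (-2.33 ± 0.33, then -2.62 ± 0.29), Cmip (-1.39 ± 0.20, then -1.56 ± 0.19) and Caly (-1.99 ± 0.29, then -2.20 ± 0.26). Gab1 was itself lower in TRAP than in lysates of the Pvalb line, by -0.42 on the log2 scale. Of the 10 somatostatin markers 4 were lower (6 without the 2 libraries), among them Elfn1 (-1.84 ± 0.48, then -2.21 ± 0.43), and none was higher. Cort (-0.05 ± 0.55, then -0.39 ± 0.48) and Crhbp (0.63 ± 0.40, then 0.45 ± 0.25), listed as somatostatin markers, did not pass the test. With the replicate block, Gad1 (1.72, adjusted p = 0.0699), Kcnc1 (0.55, adjusted p = 0.144), Sst (-2.34, adjusted p = 0.0751) and Elfn1 (-1.42, adjusted p = 0.0679) did not pass the test in edgeR, and without the 2 libraries Kcnc1 alone of these 4 did not (0.67, adjusted p = 0.0703).

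Of the 12 genes with the highest enrichment, Pvalb included, most were also higher than in the Sst line in the main fit, with and without the 2 libraries. Among them were Gjd2 at 2.40 ± 0.50 (2.44 ± 0.45 without the 2 libraries), Akr1c18 at 2.20 ± 0.57 (2.67 ± 0.43), Tac1 at 1.86 ± 0.54 (1.79 ± 0.41) and Cox6a2 at 1.09 ± 0.39 (1.04 ± 0.34). Of the 12, 4 did not pass the test: Bahcc1 (-0.06 ± 0.40, then -0.25 ± 0.41), Tnrc18 (-0.69 ± 0.48, then -0.85 ± 0.51), Slc32a1 (0.59 ± 0.35, then 0.30 ± 0.30) and Tcap (1.14 ± 0.61, then 1.10 ± 0.60). With the replicate block in edgeR, Tcap alone of these 4 passed it (1.73, adjusted p = 0.0438, then 1.70, adjusted p = 0.0218). Fast-spiking genes were higher in 11 of 19 and lower in none (10 and none without the 2 libraries), among them Kcnc2 (2.02 ± 0.44, then 1.93 ± 0.39), Btbd11 (1.90 ± 0.38, then 2.0 ± 0.31) and Hapln1 (2.60 ± 0.46, then 2.60 ± 0.43). Esrrg was higher (2.30 ± 0.49, then 2.37 ± 0.45). Of 76 respiratory chain subunits 25 were higher and 15 lower (26 and 18), and of 84 cytosolic ribosomal proteins none was higher and 48 were lower (52). Tmem212, the ependymal gene, was higher as well (3.33 ± 0.64, then 4.54 ± 0.46). Microglial markers were lower in 7 of 13 (5 of 13), with Tmem119 at -2.32 ± 0.59 (-2.05 ± 0.58). Of 19 pyramidal and granule markers 9 were lower and 1 higher, with and without the 2 libraries (median -0.72, then -0.82). Of 13 astrocyte markers 6 were higher and none lower in both fits (median 0.67 in each). The part of these markers in the differences of the other lists was not tested. With the replicate block 3 fast-spiking genes were higher, 3 cytosolic ribosomal proteins were lower, and no respiratory chain, astrocyte, microglial or somatostatin gene of these lists passed the test. With the block and without the 2 libraries, 9 fast-spiking genes were higher and 33 cytosolic ribosomal proteins lower. In that fit 4 astrocyte markers were higher, 6 pyramidal and granule markers lower and 1 higher, and no microglial marker passed the test. With all libraries and the block, Akr1c18 (2.78, adjusted p = 0.0554), Tac1 (2.02, adjusted p = 0.121), Cox6a2 (1.17, adjusted p = 0.0951), Kcnc2 (1.98, adjusted p = 0.0753) and Hapln1 (2.41, adjusted p = 0.0554) did not pass the test in edgeR, nor did Tmem119 (-2.43, adjusted p = 0.102). Ank1 (2.10, adjusted p = 0.0599) and Vwc2 (1.575, adjusted p = 0.165), also among the 12 genes, did not pass it in that fit. With the block and without the 2 libraries Vwc2 again did not pass it (1.294, adjusted p = 0.0861).

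The 2 home cage sets repeat the comparison in separate tables. Of 3465 genes called in the 15 min set and tested in both, 3211 were also called in the same direction in the 60 min set, which is 92.7% of the 15 min calls and 38% of the 8453 calls of the 60 min set, and 2 were called in the opposite direction. The log2 fold changes of 15235 genes had a Pearson r of 0.673 across genes, which share libraries and are not independent. A test of the difference between the sets called 2 genes (0.0118% of those tested), Sec14l5 and Kcnk6, both of low counts, and 2142 had an unadjusted p under 0.05. This count depended on the method, since DESeq2 called 520 genes (with a higher fold change in the 60 min set in 244 and a lower one in 276), the replicate block 212 (29 and 183), and the fit without replicate 2 of the 15 min TRAP libraries 14. These 2 were named after their values were seen. Pvalb had a log2 fold change of 5.74 in the 15 min set and 5.67 in the 60 min set, Gad1 3.25 and 3.40, Syt2 2.69 and 3.26 and Kcnc1 2.28 and 2.37. In the smaller 15 min set alone, Abcd2, Chrm2, Cmip, Coq5, Dlg4, Dsp, Fos, Gab1, Grin1, Itgb1bp1, Mbp, Slc9a2, Sptbn4, Syt1, Tagln3, Tnr and Vip did not pass the test, each with the same direction. The cytosolic ribosomal proteins were split by set, with 45 higher and none lower in the 15 min set and 37 higher and 20 lower in the 60 min set.

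**Figure D5:**
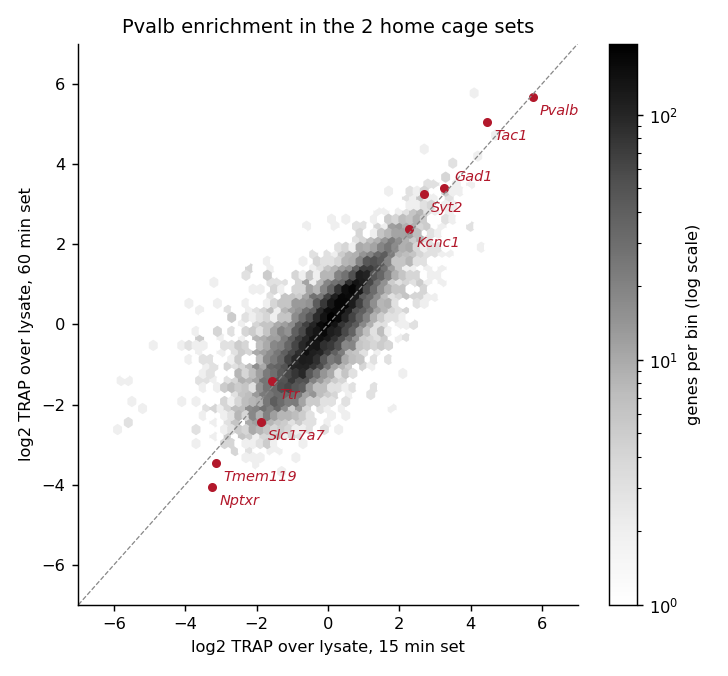
log2 TRAP over lysate in the 15 min set (horizontal) and in the 60 min set (vertical) for 15235 genes, as counts of genes per bin on a log scale, with named genes in red and the line of equal values dashed. Pvalb lies at 5.74 and 5.67, near the line.

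Over the 10 TRAP libraries, the genes whose level followed that of Pvalb most closely among 6717 compared were Pet100 (Pearson r of 0.939), Coq5 (0.936), Atp5k (0.933), Rab3a (0.863), Scamp5 (0.859) and Itgb1bp1 (0.859). These are descriptions over libraries that share a fraction, chosen as the highest of many, and come without a test.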

How the data were processed

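Polyadenylated RNA of dorsal hippocampus, ribosome-bound or from total lysate, was sequenced after RNeasy Mini extraction and Nextera XT library preparation, per the labels' protocols. The authors deposited whole-number counts per gene symbol. The submitters' processing notes name STAR 2.7.7a, featureCounts, DESeq2 and GRCm38, and the annotation and the strand setting are not given in the sources used here. Nextera XT does not mark strand, so reads of a gene and its antisense partner cannot be told apart.

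From the counts, edgeR 4.0.16 in R 4.3.3 (filterByExpr, TMM, robust quasi-likelihood fit and F-test, with glmTreat for the 2-fold test) fitted set and fraction, a set by fraction interaction, and contrasts of group means between lines. Calls were made at a Benjamini-Hochberg adjusted p under 0.05. DESeq2 1.42.0 was an alternative. CPM are shares of the library total without TMM factors, so their ratios run lower than the fitted fold changes. TPM used exon lengths from GENCODE M21, where 23355 of the 24391 symbols (95.8%) were found. Scn2a and Insyn1 appear in the tables under older names.

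Depth was 36843030 to 204139576 counted reads per library. The fit was tested on simulated counts with known changes. Of 151 count columns, 3 could be assigned to a group only. All 19 Pvalb home cage columns entered, although the design had kept out 2 columns that were thought to match no label. Both carry the same home cage TRAP name and differ beyond counting noise, and fits without them were added after seeing the data, as was the fit without 2 Sst line libraries. Members and gene lists were chosen with earlier results of these data known. Named genes were the 12 highest and 12 lowest fold changes among genes beyond 2-fold, without overlap in either set and with a mean of at least 20 CPM in the higher fraction (leaving out predicted genes named only by a number, Xist, Tsix and Y genes), the 6 genes of smallest p in each direction for each line difference, and the 6 most like Pvalb. From each list, members of smallest p and members that went against the list were eligible, and the related pairs were named in any case. Further list members were chosen for their known roles after their values were seen.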

Additional observations from a re-analysis of the deposited data

Results flagged for a closer look

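Of 81 groups of 4 or 6 libraries examined over 27 named genes, 6 held a library far from the others of its group, and chance gives about 1 in 20. In TRAP of the 15 min set, Kcnc1 reached 236.4 CPM in replicate 1 against 160.3 to 171.9 in the others, Cox6a2 fell to 110.5 CPM in replicate 4 against 187 to 197 in the others, and Csf1r reached 16.2 CPM in replicate 3 against 7.83 to 9.04. In TRAP of the 60 min set, Csf1r reached 15.2 CPM in replicate 4 against 5.52 to 9.15. In lysates of the 60 min set, Tac1 had 25.4 CPM in replicate 4 against 11.7 to 15.8, and Pcdhgc5 30.9 CPM in replicate 1 against 40.4 to 43.6. None of these libraries reached the range of the other fraction.

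The enrichment differed between groups in 3 tests by edgeR's quasi-likelihood test. It differed between the time sets in 2 genes, from the Camk2a line in 7621 genes and from the Sst line in 4990 genes.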

How the results depend on the processing

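Of 157 named genes, leaving out any 1 of the 19 libraries ended no call and reversed no called direction of TRAP over lysate, and 2 of 2983 values gained a call. Many of these genes were named for clear differences in these same libraries, so their calls were likely to stay. Over the other alternatives, 22 of 1724 values lost their call and 10 gained one. In 1 the sign changed, Cmip, at 0.0076 with offsets for GC content and length against -0.34, and the cause was not tested. Sign changes of genes called in neither fit were not counted. The 8782 calls ranged over 8421 to 9060 without 1 library. They were 9389 with DESeq2, 7393 with at least 10 CPM, 7082 with the replicate block and 3476 in the 15 min set alone, which has fewer samples. Beyond 2-fold, 2097 calls ranged over 1893 to 2294 without 1 library, and were 1393 with offsets for GC content and length (cause not tested) and 412 in the 15 min set alone. The difference between sets gave 2 calls, 520 with DESeq2, 212 with the replicate block, 0 with at least 10 CPM (1555 at an unadjusted p under 0.05), and 1 without the 2 columns of 1 name or the 3 columns of no single sample. Without 1 library it gave 1 to 14, with 14 without replicate 2 and 8 without replicate 4 of the 15 min TRAP libraries, and 1 without lysate replicate 1 of the 15 min set or replicate 2 of the 60 min set; the causes were not tested. The difference from the Camk2a line gave 7621 calls (7079 to 7882 without 1 library) and that from the Sst line 4990 (3397 to 5603), with 327 with the replicate block, 1675 with the numbered pairs of libraries only and no block, and 1738 with the block and without the 2 Sst line libraries low in Sst (the last 2 chosen after seeing the data; causes not tested). Samples of the same number correlated at -0.105 to 0.122 over 6 pairs of the Pvalb line. Over 7 pairs of the Camk2a line they correlated at 0.025 to 0.142, and over 9 of the Sst line at -0.206 to 0.275. The other pairs within a set spanned -0.144 to 0.203, -0.144 to 0.102 and -0.437 to 0.362 in these lines. In the Pvalb line they include pairs with a column of no single sample, some of them with equal numbers in their column names. Those of equal number correlated at 0.135 in the 15 min set and at 0.061 and 0.130 in the 60 min set. In the 15 min set of the Camk2a line every same-number pair lay above all other pairs, which held in no other set. These values do not settle whether samples of the same number came from the same animal. At this depth, genes of low counts limit the tests, and the lean of lists with small medians depends on scaling.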
